A study of Mus musculus with 4 samples.

Results

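The genes described here are 10 genes at the core of TGF-beta and BMP signaling, chosen by name out of the 39179 genes listed in the count data. They are the ligand genes *Tgfb1*, *Tgfb2* and *Tgfb3*, the receptor genes *Tgfbr1* and *Tgfbr2*, the inhibitory SMAD genes *Smad6* and *Smad7*, and the ID genes *Id1*, *Id2* and *Id3*. The rule names the genes and uses no threshold on a measured value, though earlier results of these data were known when it was made. The cells come from B16F1, a melanoma line of the mouse, and tumor repopulating cells (TRCs) are the cells that grow into spheroids when single B16F1 cells are seeded in soft fibrin gels. RNA-seq libraries were made in duplicate, 2 from the parental B16F1 control cells and 2 from TRCs taken on day 5 from gels of 90 Pa stiffness, with the replicate numbers 1 and 3 in each group. Neither group carries an added drug or a genetic change in the sample labels, and the parental cells are the line from which the TRCs were grown. The study depicts the control cells in flat culture and the TRCs in the gel. The TRCs thus differ from the control cells in having survived the gel and in having grown in it instead. These differences cannot be told apart. The question was how the TRCs differ from the parental control cells in the output of this pathway.

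TGF-beta ligands are secreted in a latent form held in the matrix, and once released they bring together the type II receptor TGFBR2 and the type I receptor TGFBR1, which phosphorylates SMAD2 and SMAD3. BMP ligands act through their own receptors on SMAD1, SMAD5 and SMAD9, and both arms use SMAD4 to reach their target genes. SMAD6 and SMAD7 are inhibitors whose genes are themselves induced by the pathway, and ID proteins, classical products of BMP target genes, bind bHLH transcription factors and keep them off DNA. In melanocytes and melanoma cells, TGF-beta is known as a growth inhibitor in early lesions and as a driver of invasion in late ones.

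Short DNA letters that SMAD proteins are known to bind were searched on both strands in windows from 250 bases before to 50 bases after the transcript start, in the RefSeq sequences of the build GRCm38.p6. Windows were found for 7 of the 10 genes, 8 windows in all. *Id1*, *Tgfb3* and *Smad7* were not matched. The palindrome GTCTAGAC was present in 0.213% of all 32851 windows and, among the members, in the window of *Smad6*. The shorter GTCTG or its reverse CAGAC was present in 49.6% of all windows and in those of *Tgfb2*, *Tgfbr1*, *Tgfbr2* and *Id3*. The GC-rich letters GGCGCC were present in 11.9% of all windows and in those of *Tgfbr1* and *Id2*. *Tgfbr1* had more than 1 window, and its GGCGCC lay in the window at chr4:47352972-47353271. Its CAGAC lay in the window at chr4:47385966-47386265, whose start is inside the gene. The window of *Tgfb1* held none of these letters. The windows of *Tgfb2* and *Tgfbr1*, which were not differentially expressed, also held such letters and are not shown. The sequences below belong to *Tgfbr2* and *Id3*, differentially expressed members whose windows held such letters, and to *Smad6* and *Id2*, which were not differentially expressed. Each is written 5′ to 3′ on the strand of the gene, with the letters searched for in capitals. The *Tgfbr2* run covers the 250 bases before the start at chr9:116175364-116175613 on the minus strand, and the letters begin 160 bases upstream of the start. The start is that of the RefSeq transcript of each window, which for *Id2* and *Id3* lies inside the GENCODE gene model, so that their sites lie within the annotated span of the gene. The *Id3* sites lie on the plus strand at chr4:136143643-136143672 and chr4:136143742-136143771, beginning 167 and 68 bases upstream. The *Smad6* site lies on the minus strand at chr9:64022045-64022074, beginning 4 bases upstream, and the *Id2* site on the minus strand at chr12:25096306-25096335, beginning 231 bases upstream. A match is a description of the letters and not evidence of binding.
Tgfbr2 upstream: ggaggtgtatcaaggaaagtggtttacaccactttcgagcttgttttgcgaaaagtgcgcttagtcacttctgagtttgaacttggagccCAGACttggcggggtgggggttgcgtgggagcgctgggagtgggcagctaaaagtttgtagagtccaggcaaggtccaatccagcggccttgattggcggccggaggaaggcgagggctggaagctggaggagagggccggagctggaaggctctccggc
Id3 far site: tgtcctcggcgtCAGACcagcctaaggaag
Id3 near site: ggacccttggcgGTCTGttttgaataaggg
Smad6 site: gccgccaaagtGTCTAGACtggcatatgat
Id2 site: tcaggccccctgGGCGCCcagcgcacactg

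Between 35948295 and 43511554 counts fell on genes per library. A level of 3 counts per library, taken here as the lower limit of detection, corresponds to 0.0675 to 0.0850 CPM, where CPM is the usual scaling of counts to library size, here with TMM-adjusted sizes, and this floor covers counting error only. All 10 members exceeded 1 CPM in every library and passed the filter on low expression, which 11483 genes passed. Alignments that were not unique, which were given to no gene, were 15.2% and 17.1% of all alignments for the control libraries and 18.3% and 25.2% for the TRC libraries. The melanocyte markers *Mitf*, *Sox10*, *Pmel*, *Tyr*, *Tyrp1*, *Dct* and *Mlana* were all detected, with summed levels of 15712 to 18915 CPM in control cells and 23969 to 26669 CPM in TRCs, and 1 of these 7, *Dct*, was called higher in TRCs (log2 fold change 1.08). The part of this shift and of the alignments that were not unique in the results below was not tested. The leukocyte markers *Ptprc*, *Cd3e* and *Itgam* were at 0 counts in every library, while *Cd68* was at 1.59 to 4.12 CPM. The 5 fibroblast markers, *Pdgfra*, *Pdgfrb*, *Lum*, *Dcn* and *Col1a1*, summed to 2.32 to 5.38 CPM in control cells and 2.21 to 4.14 CPM in TRCs. The 4 endothelial markers (*Pecam1*, *Cdh5*, *Tek* and *Kdr*, of which 2 were at 0) summed to 0.112 to 0.198 CPM in control cells and 0.0481 to 0.144 CPM in TRCs, and the 4 epithelial markers (*Epcam*, *Cdh1*, *Krt5* and *Krt14*, of which 2 were at 0) to 0.453 to 0.607 and 0.553 to 1.80 CPM.

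At a false discovery rate (FDR, Benjamini-Hochberg over all genes tested) under 0.05 in edgeR's exact test, *Tgfb1* and *Tgfbr2* were upregulated in TRCs and *Smad7* and *Id3* were downregulated. The other 6 members did not pass this threshold. Thus 4 of the 10 members were called where 15.9% of all genes tested were called, and 2 were called in each direction where 8.81% of all genes were called higher and 7.05% lower. The libraries of the groups did not overlap for 5 of the 10 members, compared with 60.6% of all genes tested. The median log2 fold change of the members was -0.15, and that of all genes tested was 0.0034. The quasi-likelihood test of edgeR called none of the 10 members and 9.18% of all genes, although the same 4 members had an unadjusted p under 0.05 in it. DESeq2's Wald test called 4 members and 17.7% of all genes. With control replicate 1 left out, the exact test called 2 members higher and 1 lower, and with control replicate 3 or TRC replicate 1 left out it called 0 higher and 1 lower, where an unadjusted p under 0.05 held for 1 and 1. With TRC replicate 3 left out it called 0 in either direction, where an unadjusted p under 0.05 held for 2 and 2. The labels do not say whether the libraries of a group came from separate cultures. These p-values thus rest only on the spread between these libraries, which the tests estimate for each gene partly from the other genes. In bulk RNA, a lower level in every cell and fewer cells that express the gene cannot be told apart.

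**Figure D1:**
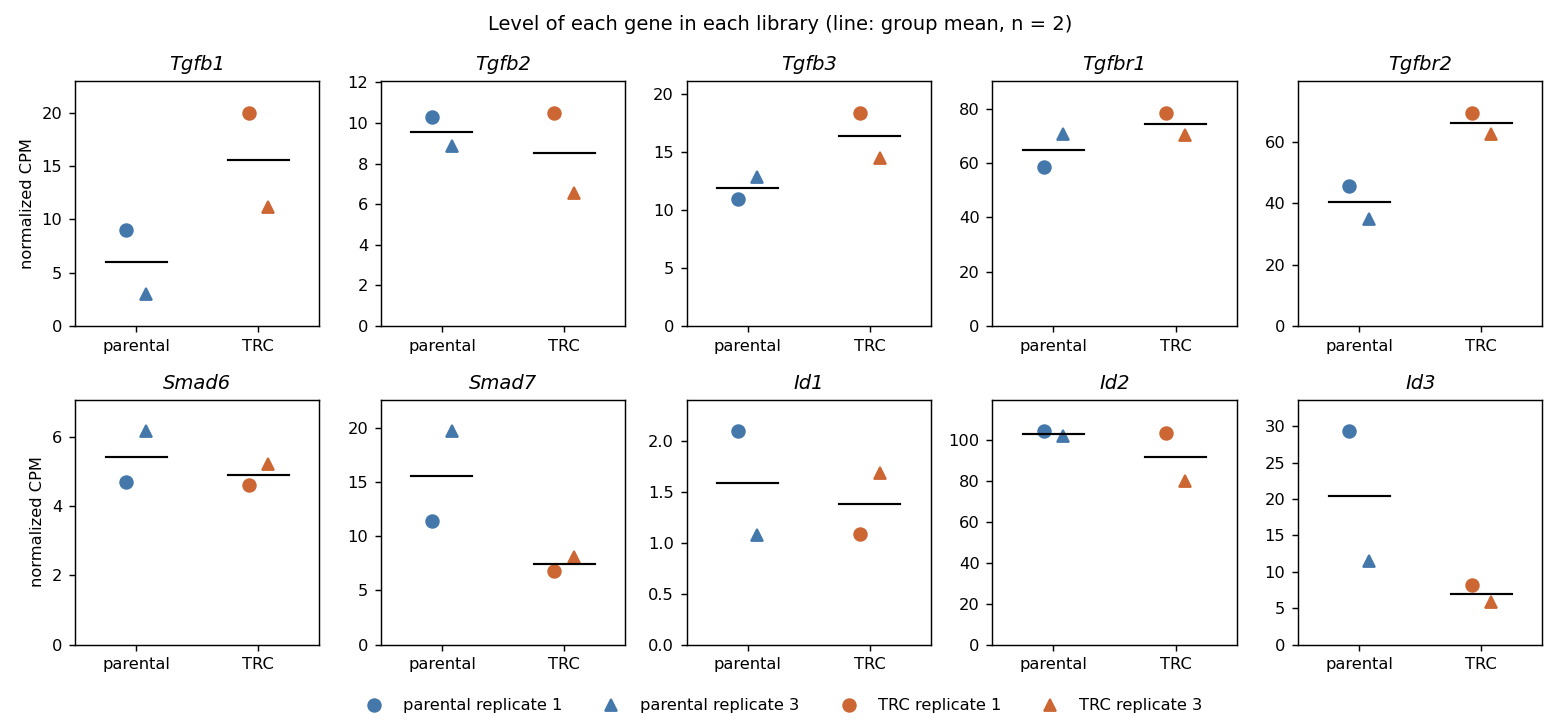
TMM-scaled CPM of the 10 members on linear axes that start at 0, with 1 point for each library of parental B16F1 control cells and TRCs and a short line at each group mean. The TRC points lie above all control points for *Tgfb1*, *Tgfb3* and *Tgfbr2*, and below all control points for *Smad7* and *Id3*.

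Among the ligand genes, *Tgfb1* was upregulated in TRCs, while *Tgfb2* and *Tgfb3* did not pass the threshold. *Tgfb1* (ENSMUSG00000002603, chr7:25687002-25705077, plus strand, GRCm38) encodes the ligand best known from platelets and immune regulation. It was measured at 8.97 and 3.03 CPM in replicates 1 and 3 of the control cells and at 20.0 and 11.2 CPM in the same replicates of the TRCs, from 399, 107, 831 and 465 counts. Both TRC libraries were above both control libraries, and the control libraries differed from each other by more than the lower TRC library differed from the higher control library. The mean rose from 6.00 ± 4.20 to 15.6 ± 6.23 CPM (SD, n = 2 each), or 1.37 ± 0.50 on the log2 scale (standard error). The FDR was 0.0461 in edgeR's exact test and 0.126 in the quasi-likelihood test. The call was lost without control replicate 3 (log2 fold change 0.80, FDR 0.388), without TRC replicate 1 (0.87, 0.488) and without TRC replicate 3 (1.72, 0.0574). Without control replicate 1 it was 2.36, and the FDR 0.000363 in the exact test.

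*Tgfb2* and *Tgfb3* encode the other ligands of the subfamily, known from the development of heart, eye and palate. *Tgfb2* was measured at 10.3 and 8.84 CPM in control cells and at 10.5 and 6.56 CPM in TRCs. Its groups overlapped, and the log2 fold change of -0.17 ± 0.36 (standard error) had an FDR of 0.839 in the exact test. *Tgfb3* was measured at 11.0 and 12.8 CPM in control cells and at 18.4 and 14.5 CPM in TRCs. Its TRC libraries were both higher, but the log2 fold change of 0.46 ± 0.29 had an FDR of 0.385 in the exact test. The ratio of *Tgfb1* to *Tgfb3* counts was 0.816 and 0.236 in control cells and 1.09 and 0.772 in TRCs, with overlapping groups. The *Tgfb3* gene overlaps *Ttll5* on the opposite strand over 5149 bases, and *Ttll5* had between 1446 and 1625 counts per library. The strand setting of the counting is not given in the sources used here, so the part of reads that these genes share was not tested.

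Both receptor genes were well expressed, and *Tgfbr2* was upregulated in TRCs while *Tgfbr1* did not pass the threshold. *Tgfbr2* (ENSMUSG00000032440, chr9:116084293-116175360, minus strand) encodes the type II receptor, which binds the ligand first. It was measured at 45.7 and 35.1 CPM in replicates 1 and 3 of the control cells and at 69.5 and 62.7 CPM in the same replicates of the TRCs, from 2030, 1238, 2891 and 2610 counts. Both TRC libraries were above both control libraries, and the gap between the groups was wider than the gap within either. The mean rose 1.64-fold, from 40.4 ± 7.48 to 66.1 ± 4.82 CPM, or 0.71 ± 0.23 on the log2 scale with an FDR of 0.0235 in the exact test and of 0.0552 in the quasi-likelihood test. The log2 fold change was 0.53 without control replicate 3, 0.62 without TRC replicate 1 and 0.78 without TRC replicate 3, with FDR values of 0.266, 0.252 and 0.117 in the exact test. Without control replicate 1 it was 0.91, with an FDR of 0.0127 in the exact test.

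*Tgfbr1* encodes the type I receptor, whose kinase phosphorylates the SMADs. It was measured at 58.7 and 70.8 CPM in control cells and at 78.5 and 70.5 CPM in TRCs, with overlapping groups and a log2 fold change of 0.20 ± 0.22 (FDR 0.615, exact test). The ratio of *Tgfbr2* to *Tgfbr1* counts was 0.777 and 0.495 in control cells and 0.886 and 0.890 in TRCs. The TRC libraries thus had nearly the same ratio, above that of both control libraries, and control replicate 1 was closer to the TRCs than to control replicate 3.

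Of the inhibitory SMAD genes, *Smad7* passed the threshold and *Smad6* did not. *Smad7* (ENSMUSG00000025880) encodes the inhibitor of the TGF-beta and activin receptors, and it was downregulated in TRCs. It was measured at 11.4 and 19.6 CPM in replicates 1 and 3 of the control cells and at 6.81 and 8.03 CPM in the same replicates of the TRCs, from 508, 693, 283 and 334 counts. Both TRC libraries were below both control libraries, and the spread was larger among the control libraries. The mean fell from 15.5 ± 5.81 to 7.42 ± 0.863 CPM, or -1.06 ± 0.36 on the log2 scale with an FDR of 0.0435 in the exact test and of 0.0831 in the quasi-likelihood test. The log2 fold change was -0.62 without control replicate 3, -0.96 without TRC replicate 1 and -1.19 without TRC replicate 3, with FDR values of 0.492, 0.320 and 0.183 in the exact test. Without control replicate 1 it was -1.40, with an FDR of 0.00591 in the exact test.

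*Smad6*, which encodes the inhibitor that acts mainly on the BMP arm, was measured at 4.68 and 6.15 CPM in control cells and at 4.59 and 5.22 CPM in TRCs. Its groups overlapped, and its log2 fold change of -0.14 ± 0.39 had an FDR of 0.870 in the exact test. The ratio of *Smad7* to *Smad6* counts was 2.44 and 3.19 in control cells and 1.48 and 1.54 in TRCs, so that both TRC libraries were below both control libraries. The difference between the responses of the *Smad7* and *Smad6* genes was not tested.

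Of the ID genes, *Id3* was downregulated in TRCs, and *Id1* and *Id2* did not pass the threshold. *Id3* (ENSMUSG00000007872, chr4:136143497-136145755, plus strand) was measured at 29.3 and 11.5 CPM in replicates 1 and 3 of the control cells and at 8.18 and 5.79 CPM in the same replicates of the TRCs, from 1303, 407, 340 and 241 counts. Control replicate 1 stood far above the other 3 libraries, and control replicate 3 was closer to the TRC libraries than to its own group. The mean fell from 20.4 ± 12.6 to 6.99 ± 1.69 CPM, or -1.55 ± 0.44 on the log2 scale with an FDR of 0.00715 in the exact test and of 0.0648 in the quasi-likelihood test. The log2 fold change was -0.72 without control replicate 1 and -1.33 without TRC replicate 3, with FDR values of 0.279 and 0.181 in the exact test. It was -2.07 without control replicate 3 and -1.84 without TRC replicate 1, with FDR values of 1.18e-05 and 0.0477 in the exact test.

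*Id2*, the most highly expressed member, was measured at 104 and 102 CPM in control cells and at 103 and 79.6 CPM in TRCs. The groups overlapped, with TRC replicate 3 lower than the other 3 libraries, and the log2 fold change was -0.17 ± 0.22 (FDR 0.681, exact test). *Id1* was low in all libraries, at 2.09 and 1.08 CPM in control cells and at 1.08 and 1.68 CPM in TRCs. With 38 to 93 counts per library its log2 fold change of -0.20 had a standard error of 0.70 and an FDR of 0.856 in the exact test. *Id4*, the fourth ID gene and not a member, had 1, 3, 15 and 0 counts and was not tested. The ratio of *Id3* to *Id2* counts was 0.282 and 0.113 in control cells and 0.0794 and 0.0727 in TRCs, and most of the distance between the extremes lay within the control cells.

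**Figure D2:**
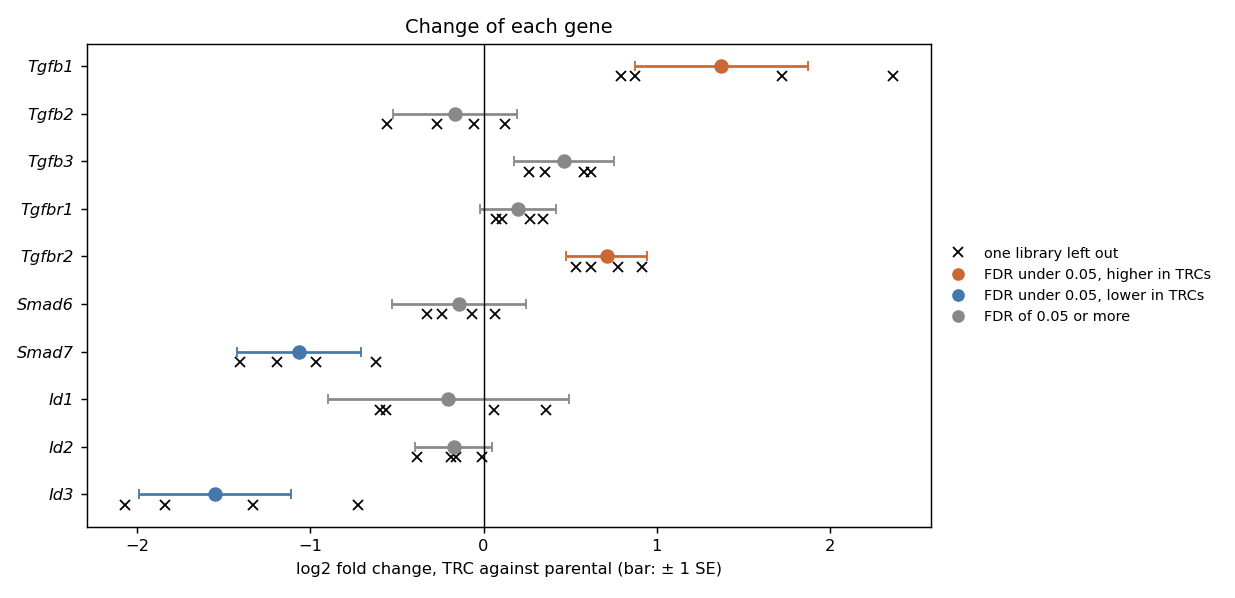
Log2 fold change of the 10 members, TRCs against parental B16F1 control cells, with bars of 1 standard error from DESeq2. Points with FDR under 0.05 in edgeR's exact test are orange (higher in TRCs) or blue (lower), and the others are grey. Black crosses give the log2 fold change with 1 library left out. The points of *Tgfb1* (1.37) and *Tgfbr2* (0.71) lie to the right of 0 and those of *Smad7* (-1.06) and *Id3* (-1.55) to the left. The points of the other 6 lie between -0.20 and 0.46.

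Levels were compared between genes per kilobase of exon, so that long and short transcripts can be set side by side. In control cells *Id2* led at 42.2 CPM per kilobase, followed by *Id3* at 11.4 and *Tgfbr1* at 9.92, whose ranges overlapped. *Tgfbr2* followed at 4.93, *Tgfb3* at 3.52 and *Smad7* at 3.44, the ranges of the last pair overlapping. The lowest 4 genes, *Smad6*, *Tgfb2*, *Id1* and *Tgfb1*, had levels of 1.19 to 1.69 CPM per kilobase, and no neighbours among them were separated by their libraries. In TRCs *Id2* again led at 37.5 CPM per kilobase, but the receptors *Tgfbr1* at 11.4 and *Tgfbr2* at 8.08 now followed, each separated from its neighbours in the order. *Tgfb3* at 4.85, *Id3* at 3.90 and *Tgfb1* at 3.09 came next, and neighbours among them overlapped. *Smad7* at 1.64, *Smad6* at 1.53, *Tgfb2* at 1.47 and *Id1* at 1.19 closed the order, with neighbours overlapping. The place of *Tgfb1* in both orders depends on the exon length given to it, as described for the shares of the ligands.

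The make-up of each family was described as the share of its summed level per kilobase. Among the ligands, *Tgfb1* made up 26.2% and 10.2% in replicates 1 and 3 of the control cells and 35.4% and 29.1% in those of the TRCs. The share of *Tgfb2* was 26.1% and 25.8% in control cells and 16.2% and 14.9% in TRCs, and here the groups were well separated. The share of *Tgfb3* was 47.8% and 64.1% in control cells and 48.5% and 56.1% in TRCs, with overlapping groups. The summed ligand level was 6.81 and 5.92 CPM per kilobase in control cells and 11.2 and 7.63 in TRCs. These shares depend on the length given to a gene, which for *Tgfb1* was 5042 bases for all exons merged and 2175 bases for its longest protein-coding transcript. With the longest protein-coding transcripts, *Tgfb1* had a mean share of 32.1% in control cells and 51.6% in TRCs and *Tgfb3* of 44.7% and 36.3%, so that *Tgfb1* and not *Tgfb3* led in TRCs.

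The share of *Tgfbr2* in the receptor pair was 38.3% and 28.3% in control cells and 41.4% and 41.5% in TRCs. *Smad7* made up 63.4% and 69.4% of the inhibitory SMAD output in control cells and 51.2% and 52.2% in TRCs. Among the 4 ID genes, *Id2* made up 70.1% and 85.0% in control cells and 88.3% and 87.5% in TRCs, and *Id3* 26.9% and 13.1% in control cells and 9.54% and 8.66% in TRCs. The share of *Id1* was between 1.89% and 3.88% in all libraries. Both TRC libraries were thus outside the range of the control libraries for *Tgfbr2*, *Smad7*, *Id2* and *Id3*. The shares within a family depend on each other, so that these are not separate changes. The levels of *Id2*, and of *Tgfb2* among the ligands, overlapped between the groups although their shares did not. A comparison of 2 against 2 libraries cannot go below a 2-sided p of 0.333 in an exact permutation test, so no test was made on shares or ratios.

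**Figure D3:**
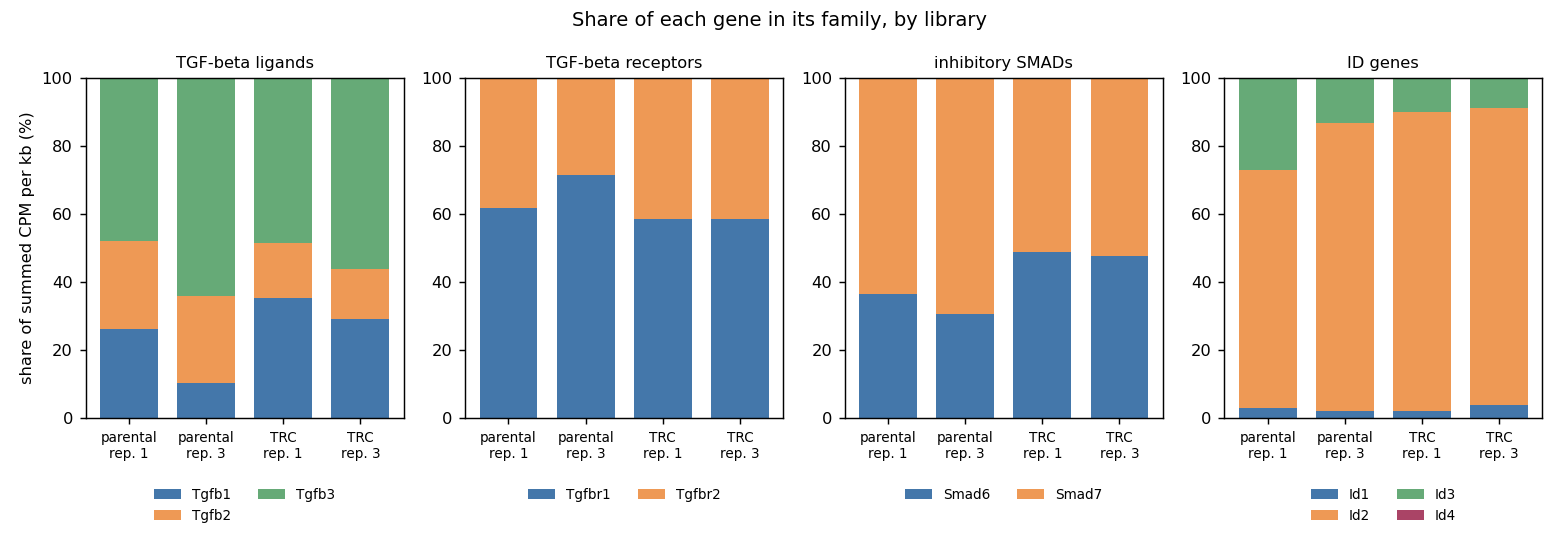
Share in percent of each gene in the summed CPM per kilobase of its family, as stacked bars, 1 for each library, for the ligands, receptors, inhibitory SMADs and ID genes. *Tgfb2* and *Smad7* take smaller shares and *Tgfbr2* a larger share in both TRC libraries than in both control libraries.

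The 10 members were set beside 131 other genes of the pathway in 9 groups, a few of which stand in more than 1 group. Of these, 130 were listed in the count data, 24 had no count in any library and 67 passed the filter. In edgeR's exact test 13 were upregulated and 6 downregulated, 28.4% of those tested beside 15.9% of all genes, and their median log2 fold change was -0.03. The quasi-likelihood test called 8 of the 67 and DESeq2's Wald test 17. The exact test called 5 higher and 6 lower without control replicate 3, 8 and 3 without TRC replicate 1, and 6 and 4 without TRC replicate 3. Of the 19 genes called, *Acvrl1*, *Adam12*, *Col1a2*, *Postn*, *Itgb8* and *Hey2* were called with any 1 library left out, and the other 13 lost the call with at least 1 library left out. *Itgb8* and *Hey2* had passed the filter through 1 group alone, so that they had to differ to be tested.

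**Figure D4:**
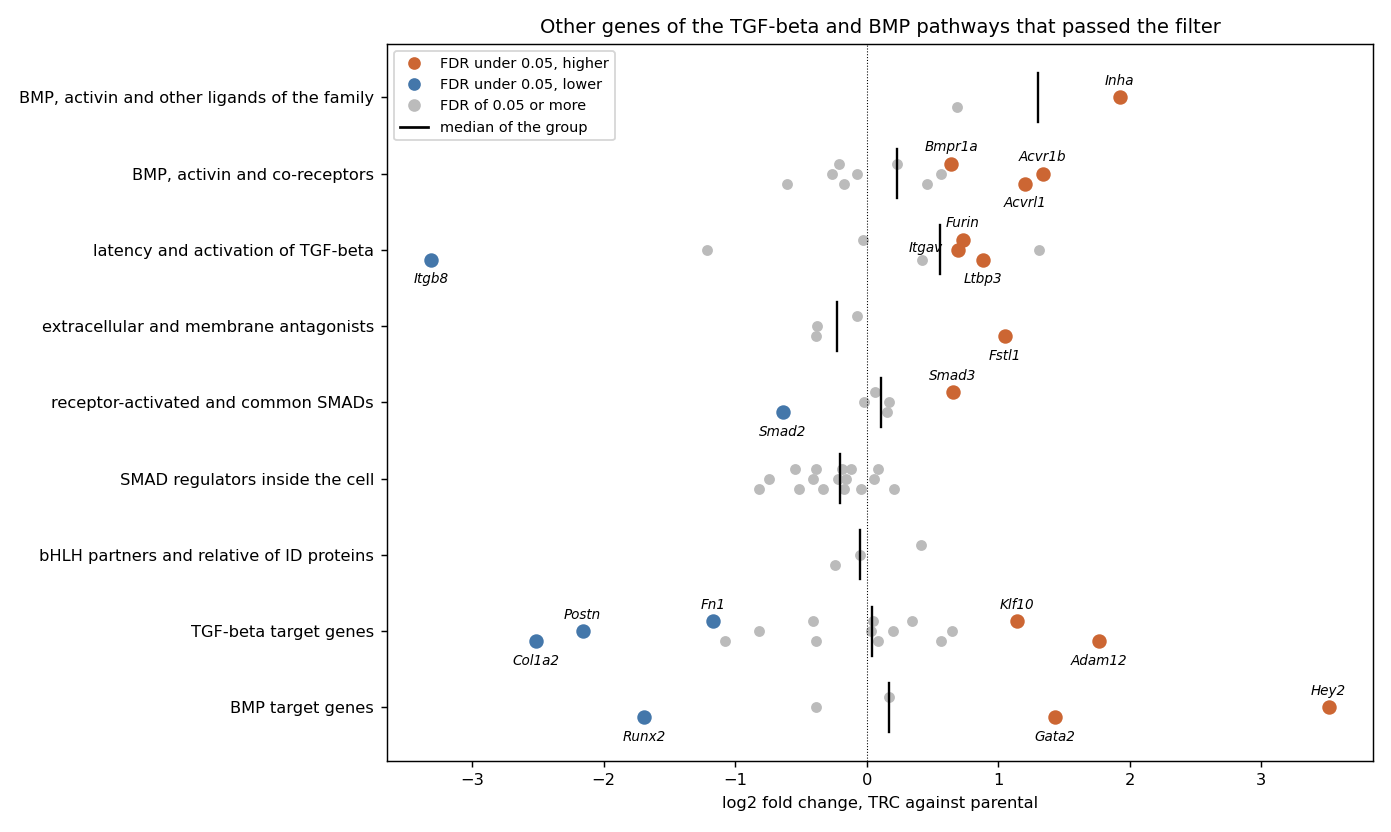
Log2 fold change, TRCs against parental B16F1 control cells, of the other pathway genes that passed the filter, 1 point per gene and 1 line per group, with the group median as a vertical bar and genes past FDR 0.05 colored and named. Calls range from *Itgb8* at -3.31 to *Hey2* at 3.51, both of which passed the filter through 1 group alone. The 16 SMAD regulators hold none, where 15.9% of all genes tested were called.

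Of the 25 ligand genes listed for the BMP and activin branches, 14 had no count in any library and 2 passed the filter. *Inha*, which encodes the inhibin alpha subunit, was upregulated from 0.820 ± 0.399 to 3.15 ± 0.0661 CPM, or 1.92 ± 0.62 on the log2 scale with an FDR of 0.00316 in the exact test. The call was lost without control replicate 3 (log2 fold change 1.51) and without TRC replicate 3 (1.90). *Gdf11*, the other gene tested, was measured at 30.9 and 20.6 CPM in control cells and at 51.5 and 31.6 CPM in TRCs. Its log2 fold change was 0.69, with an FDR of 0.111 in the exact test. Of the inhibin beta subunit genes listed, *Inhba* had 0 and 0 counts in control cells and 0 and 1 in TRCs. *Inhbb* and *Inhbe* had 0 counts in every library. Of the 11 BMP, activin and co-receptor genes tested, 3 rose and none fell, with a median of 0.23, where 8.81% of all genes tested rose. Without TRC replicate 3 the count was 1 and the median -0.0031, without control replicate 3 they were 2 and 0.37, and the quasi-likelihood test called 2. *Acvr1b*, an activin receptor, rose from 9.09 ± 0.0430 to 23.0 ± 5.15 CPM (log2 fold change 1.34 ± 0.29, FDR 0.00133, exact test). *Acvrl1*, known as the BMP9 and BMP10 receptor of endothelial cells, rose from 28.8 ± 6.57 to 66.7 ± 5.36 CPM (1.21 ± 0.25, FDR 5.06e-05, exact test). *Bmpr1a*, a BMP receptor, rose from 115 ± 18.6 to 179 ± 1.25 CPM (0.65 ± 0.21, FDR 0.0401, exact test). At an unadjusted p under 0.05 the exact test had 4 of the 11 higher and 0 lower. Of all 11483 genes tested it had 1703 higher and 1517 lower at that level.

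Genes for the latency and activation of TGF-beta moved in both directions, with 3 of 8 tested upregulated, 1 downregulated and a median log2 fold change of 0.56, where 8.81% of all genes rose and 7.05% fell. The 3 higher calls became 0 without control replicate 3, and 1 without control replicate 1, without TRC replicate 1 and in the quasi-likelihood test. *Ltbp3*, which tethers the latent complex to the matrix, rose from 86.1 ± 11.1 to 159 ± 45.5 CPM with a log2 fold change of 0.88 ± 0.26 (FDR 0.00814, exact test). *Furin*, the protease that cleaves the pro-ligand, rose with a log2 fold change of 0.73 ± 0.25 (FDR 0.0220, exact test). The integrin genes moved apart, although the integrin of their alpha v and beta 8 chains is a known activator of latent TGF-beta. *Itgav* was measured at 190.8 and 191 CPM in control cells and at 310 and 309 CPM in TRCs, a rise of 0.70 ± 0.18 on the log2 scale (FDR 0.0173, exact test). *Itgb8* was measured at 5.67 and 10.6 CPM in control cells and at 0.914 and 0.721 CPM in TRCs. Its log2 fold change of -3.31 ± 0.50 had an FDR of 2.27e-08 in the exact test. This gene had passed the filter through the control cells alone, so that it had to differ to be tested. Of the 4 antagonist genes tested, *Fstl1* rose, with a log2 fold change of 1.05 ± 0.33 (FDR 0.0271, exact test), and the group median was -0.23.

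Among the receptor-activated and common SMADs, *Smad3* was upregulated and *Smad2* was downregulated, while the other 4 genes did not pass the threshold. Of all genes tested, 8.81% were called higher and 7.05% lower. *Smad3* was measured at 50.7 and 61.6 CPM in control cells and at 81.9 and 95.2 CPM in TRCs, with a log2 fold change of 0.66 ± 0.22 (FDR 0.0317, exact test). *Smad2* was measured at 55.8 and 69.3 CPM in control cells and at 39.7 and 40.7 CPM in TRCs, with a log2 fold change of -0.64 ± 0.23 (FDR 0.0423, exact test). The ratio of *Smad3* to *Smad2* counts was 0.910 and 0.888 in control cells and 2.06 and 2.34 in TRCs, and the difference within either group was small beside that between them. *Smad1*, *Smad4*, *Smad5* and *Smad9* had log2 fold changes between -0.02 and 0.17. The quasi-likelihood test placed *Smad3* and *Smad2* just above the threshold, with FDR values of 0.0625 and 0.0627. The call of *Smad3* was lost without control replicate 1 (log2 fold change 0.52), TRC replicate 1 (0.75) or TRC replicate 3 (0.54), and that of *Smad2* without control replicate 3 (-0.47), TRC replicate 1 (-0.63) or TRC replicate 3 (-0.66).

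None of the 16 regulators of SMADs inside the cell was called in edgeR's exact test, where 15.9% of all genes tested were called. They include SMURF ubiquitin ligases and the SKI and TGIF corepressors. At an unadjusted p under 0.05 in that test, 3 of the 16 were lower and 0 higher. Of all 11483 genes tested, 1517 were lower and 1703 higher at that level. DESeq2's Wald test called 1 of the 16 regulators and the quasi-likelihood test 0. Their log2 fold changes ran from -0.82 to 0.21 with a median of -0.20. The bHLH genes *Tcf3*, *Tcf4* and *Tcf12*, whose proteins are bound by ID proteins, had log2 fold changes of -0.24, -0.05 and 0.41, and none passed the threshold in the exact test, at an unadjusted p under 0.05 or in DESeq2's Wald test.

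The known target genes did not move together. Of 16 TGF-beta target genes tested, 2 rose and 3 fell, where 8.81% and 7.05% of all genes did, with a median log2 fold change of 0.04. The median was -0.20 without control replicate 3, -0.17 without TRC replicate 3 and 0.33 without control replicate 1, and the quasi-likelihood test called 2 genes. The 3 that fell encode matrix proteins. *Col1a2*, a collagen I chain, fell from 7.25 ± 0.771 to 1.26 ± 0.358 CPM (log2 fold change -2.52 ± 0.44, FDR 4.15e-06, exact test). *Postn*, encoding periostin, fell from 21.7 ± 9.78 to 4.85 ± 0.660 CPM (-2.16 ± 0.38, FDR 6.44e-06, exact test). *Fn1*, encoding fibronectin, fell from 83.5 ± 38.6 to 37.2 ± 8.16 CPM (-1.17 ± 0.33, FDR 0.00295, exact test), but the log2 fold change was -0.59 without control replicate 1 and -0.98 without TRC replicate 1, neither of which was called. The 2 that rose were *Adam12*, which encodes a membrane protease, and *Klf10*, an early response transcription factor gene. *Adam12* was measured at 21.1 and 72.5 CPM in control cells and at 149 and 168 CPM in TRCs (1.76 ± 0.80, FDR 0.000813, exact test), and its control libraries differed widely. Its log2 fold change was 1.13 without control replicate 1 and 2.92 without control replicate 3, and DESeq2's Wald test gave an FDR of 0.114. *Klf10* was measured at 16.7 and 11.6 CPM in control cells and at 20.4 and 42.2 CPM in TRCs (1.14 ± 0.37, FDR 0.0189, exact test), and its log2 fold change was 0.52 without TRC replicate 3 and 0.91 without control replicate 3, neither of which was called. *Col1a1*, the partner chain of *Col1a2* and also 1 of the fibroblast markers, had a log2 fold change of -0.38 ± 0.83 and an FDR of 0.768 in the exact test. The summed fibroblast markers given above overlapped between the groups. Of these, *Pdgfrb* was lower in both TRC libraries, with 32 and 10 counts in control cells and 0 and 5 in TRCs. *Lum* and *Dcn*, at 4 counts or fewer in every library, were higher in both TRC libraries. The bearing of these markers on the falls was not tested.

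Of 5 BMP target genes tested besides the ID genes, 2 rose and 1 fell, where 8.81% and 7.05% of all genes did, with a median of 0.17 that ran from -0.43 without TRC replicate 1 to 0.58 without TRC replicate 3. Without control replicate 1 it was -0.032, and the quasi-likelihood test and DESeq2's Wald test each called 1 gene. All 3 were expressed at low levels. *Hey2*, a Notch and BMP response gene, had 4 and 7 counts in control cells and 59 and 77 counts in TRCs (log2 fold change 3.51 ± 0.92, FDR 5.56e-06, exact test). *Runx2*, an osteogenic transcription factor gene, had 105 and 62 counts in control cells and 26 and 27 in TRCs (-1.69 ± 0.67, FDR 0.0124, exact test). *Gata2* had 50 and 38 counts in control cells and 173 and 74 in TRCs (1.43 ± 0.64, FDR 0.0495, exact test). Like *Hey2*, *Runx2* had passed the filter through 1 group alone.

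For each differentially expressed member, the genes with the most similar profile over the 4 libraries were sought as the smallest Euclidean distance of centred log2(CPM + 0.5). For *Tgfb1* they were *Adssl1* (distance 0.0768) and *Slc25a35* (0.209), and for *Id3* they were *Rbms3* (0.259) and *Srgap1* (0.283). For *Tgfbr2* they were *Pcmtd1* (0.0445) and *Agpat4* (0.0624), and for *Smad7* they were *Trmt10a* (0.106) and *Alyref* (0.109). Within a distance of 0.2 there were 146 genes for *Tgfbr2*, 26 for *Smad7*, 1 for *Tgfb1* and 0 for *Id3*. The profiles of *Tgfb1* and *Id3*, with their wide difference between the control libraries, thus had fewer genes within this distance than those of *Tgfbr2* and *Smad7*. The distance is not scaled to the size of the differences in a profile, so these counts also depend on that size.

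The 4 calls among the members depended on the way the test was run. Of 13 other settings, *Id3* passed FDR 0.05 in 9, *Tgfbr2* in 7, *Smad7* in 7 and *Tgfb1* in 6, with the direction kept in every setting. The other 6 members did not pass it in any of them.

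**Figure D5:**
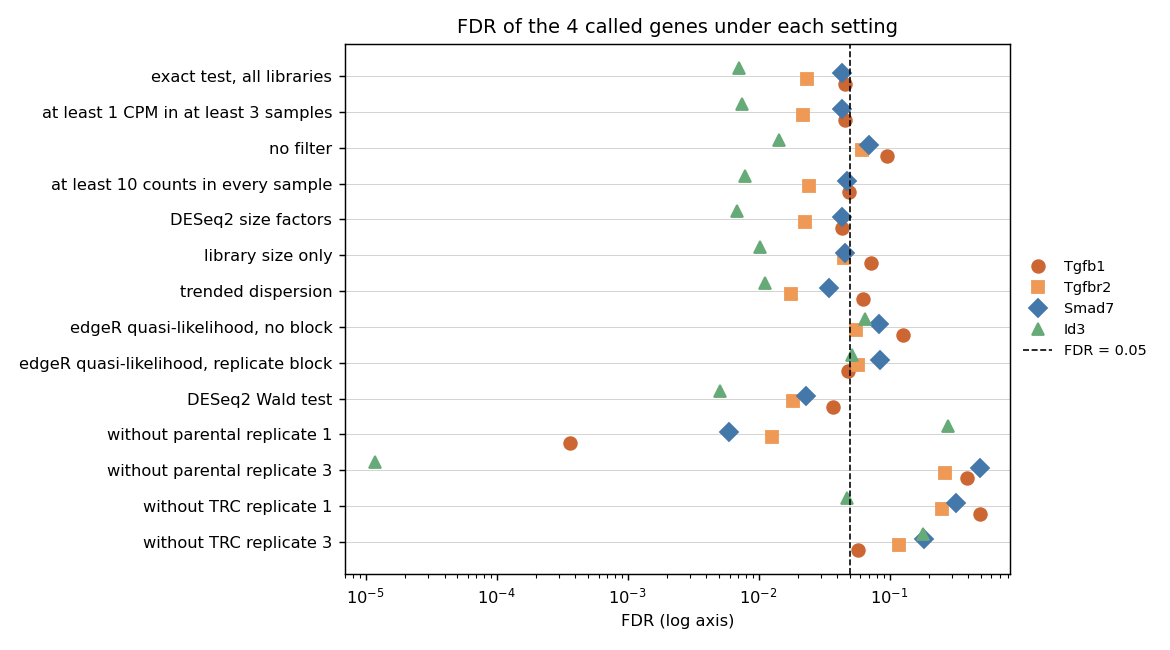
FDR on a log axis of *Tgfb1*, *Tgfbr2*, *Smad7* and *Id3* under each of 14 settings of the test, with a vertical line at 0.05. The values range from 1.18e-05 for *Id3* without control replicate 3 to 0.492 for *Smad7* without that library, and in the quasi-likelihood test without a replicate block all 4 lie to the right of the line.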

How the data were processed

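The RNA-seq samples, 2 of each cell type, were grouped by their labels. The deposited files hold unnormalized counts for each Ensembl gene, which the authors made from single-end reads of stranded libraries with Trimmomatic 0.35, TopHat2 2.1.0 and htseq-count on GRCm38. The totals of htseq-count that are no gene were left out here. Alignments on no gene made up 2.95% to 4.25% of all alignments. Genes with less than 1 CPM in at least 3 samples were removed and TMM factors computed. The exact test of edgeR 4.0.16 (R 4.3.3) then used common and tagwise dispersions, following the study's methods, and standard errors came from DESeq2 1.42.0. The code was tested on simulated data. Gene models came from GENCODE M21, with a symbol for 11403 of the 11483 genes tested.

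The members and lists were chosen with earlier results of these data known. Genes named are the members, *Id4*, the markers, up to 3 genes called in each direction per pathway group with the smallest FDR and no overlap, and the 2 nearest profiles of each called member. Other genes, such as *Gdf11*, the SMADs and bHLH genes that were not called, were named to complete a count after their values were seen, and some genes of the lists are not reported here. Plots used matplotlib 3.10.9. The alternatives were other filters, scalings, dispersions and tests, and each library left out.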

Additional observations from a re-analysis of the deposited data

How the results depend on the processing

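None of the 13 alternatives turned the direction of *Tgfb1*, *Tgfbr2*, *Smad7* or *Id3*, and the cause of lost calls was not tested. Under the quasi-likelihood test the log2 fold changes were 1.37, 0.71, -1.06 and -1.55 with no call. Without a filter, where 19571 genes were tested, *Tgfb1* (1.34), *Tgfbr2* (0.68) and *Smad7* (-1.09) were not called. *Tgfb1* was also lost with library size alone (1.34) and with trended dispersions (1.37). Of the 2 members called in each direction, these settings left 0 higher and 0 lower, 0 and 1, 1 and 2, and 1 and 2, while an unadjusted p under 0.05 held for 2 and 2 in each. The quasi-likelihood test called 567 genes higher and 487 lower, against 1012 and 810, and 5 and 3 of the pathway genes, against 13 and 6. The deviations of replicate 1 from its group mean had r = 0.03 across genes between the 2 groups. The labels do not say whether the same number marks paired samples, and this correlation cannot decide it. With a replicate block, *Tgfbr2* (0.72), *Smad7* (-1.02) and *Id3* (-1.42) were not called, 1 member was called higher and 0 lower, all genes gave 477 and 308 and pathway genes 5 and 3. The median of the pathway genes was -0.03, and -0.013 with 1 CPM in at least 3 samples, -0.062 without a filter and -0.061 with library size alone. With 1 library left out, the lone library of its group was assumed to vary like the other group. Log2 fold changes then ran from 0.80 to 2.36 for *Tgfb1*, -0.56 to 0.13 for *Tgfb2*, 0.27 to 0.62 for *Tgfb3*, 0.07 to 0.34 for *Tgfbr1*, 0.53 to 0.91 for *Tgfbr2*, -0.33 to 0.068 for *Smad6*, -1.40 to -0.62 for *Smad7*, -0.60 to 0.36 for *Id1*, -0.39 to -0.0066 for *Id2* and -2.07 to -0.72 for *Id3*. The sign turned for *Tgfb2* (0.13 without TRC replicate 3), *Smad6* (0.068 without control replicate 3) and *Id1* (0.36 without control replicate 1 and 0.06 without TRC replicate 1). Members called ranged from 0 to 2 higher and 0 to 1 lower, all genes from 500 to 1078 and 269 to 854, pathway genes from 5 to 10 and 3 to 7, and their median from -0.088 to 0.11. The length of the longest transcript, for the shares, was chosen after seeing the data. *Id1* and the BMP target genes rest on low counts and also varied between libraries.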

Other observations

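Of the pathway genes that had a count but were not tested because of low expression, 39 in all, 1 passed an FDR of 0.05 when edgeR's exact test was run without the filter. This was *Fstl3*, which encodes a secreted protein that binds and blocks activin, with 4 and 0 counts in the control libraries and 49 and 39 in the TRC libraries. *Atoh8*, a BMP target gene, had 111 and 27 counts in control cells and 33 and 14 in TRCs, with an FDR of 0.152 in that exact test. These genes were named after their values were seen.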
